A study of Mus musculus with 8 samples.

Results

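Transcripts of 10 transcription factors that set the identity and maturation of natural killer (NK) cells were followed across wild-type and CIS-null NK cells, ex vivo and in vitro. The factors were Eomes, Tbx21, Zeb2, Id2, Id3, Prdm1, Nfil3, Gata3, Runx3 and Bcl11b, taken by gene symbol from a table of raw read counts for 27179 genes. All 10 were in the table, and all 10 were among the 13184 genes with enough counts to be tested. The study sequenced total RNA of 8 libraries from C57BL/6 mice, 2 in each of 4 groups. These crossed 2 genotypes, wild type and CIS-/-, with 2 states, ex vivo and in vitro. Cells came from spleen, bone marrow and blood and had been enriched with microbeads against CD49b (DX5), the integrin encoded by Itga2. The CIS-/- cells lack CIS, the product of Cish, an inhibitor of cytokine receptor signalling. The labels do not give the age of the mice, the structure of the deleted allele, the culture medium, its cytokines or its duration. Nor do they say whether replicates were separate mice, pools or cultures. Every p-value here therefore speaks of the spread between the sequenced samples, part of which may be technical.

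NK cells arise from lymphoid progenitors that express Nfil3 and Id2. The T-box factors Eomes and T-bet (encoded by Tbx21) then establish and keep the mature state, in which the cells hold perforin and granzymes and recirculate through blood. Zeb2 and Blimp-1 (encoded by Prdm1) act late in this maturation, Id2 and Id3 bind E proteins and keep them off DNA, and Gata3, Runx3 and Bcl11b are shared with T cells and other innate lymphoid cells.

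The libraries held 21.5 to 28.1 M (1e6) counts. The targeted gene Cish separated the genotypes in both states, with CIS-null libraries at 1.29 and 2.63 against 9.25 and 9.11 CPM (normalised counts per 1e6 counts) ex vivo, and 21.2 and 17.2 against 219.8 and 201.8 CPM in vitro. All 10 NK markers other than the members (Ncr1, Klrb1c, Klrk1, Il2rb, Klrd1, Itga2, Nkg7, Gzma, Prf1 and Tyrobp) had counts in every group. Their summed level ran from 21840 to 38097 CPM, of which Gzma alone held 9593 to 25868 CPM. On culture 7 of the 10 were called lower and 1 higher in wild-type cells, against 31.6% and 32.1% of tested genes. In CIS-null cells 6 were lower and 1 higher, against 37.5% and 34.8%. Mean Itga2 went from 275 to 19.7 CPM in wild-type and from 240 to 8.57 CPM in CIS-null cells. The genotypes also differed in sex-linked RNA, in opposite directions in the 2 states. Xist reached 119.6 and 162.1 CPM in wild-type ex vivo and 130.7 and 89.6 CPM in CIS-null in vitro libraries, and at most 0.322 CPM in the other 4. Eif2s3y, on the Y chromosome, reached 34.1 and 21.7 CPM in wild-type ex vivo cells, 84.9 and 70.4 CPM in CIS-null ex vivo cells, 135.1 and 122.0 CPM in wild-type in vitro cells, and 0.0385 and 0 CPM in CIS-null in vitro cells. Xist changed in all 5 comparisons, with log2 fold changes of -12.62 and 8.73 on culture in wild-type and CIS-null cells, so sex-linked expression cannot be told apart from genotype, from culture or from their interaction. All 10 factors are autosomal.

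Eomes (Entrez 13813) lies on the plus strand of chromosome 9 at 118478186 to 118486132 in GRCm38, 11.2 Mb beyond the end of Cish on the same chromosome. Tbx21 lies on chromosome 11 at 97098007 to 97115331, Zeb2 on chromosome 2 at 44983512 to 45117442 and Runx3 on chromosome 4 at 135120645 to 135177990. The other members lie on chromosomes 2 (Gata3), 4 (Id3), 10 (Prdm1), 12 (Id2 and Bcl11b) and 13 (Nfil3). Their transcripts differ widely in counted length, from 953 bases for Id3 and 1272 for Id2 to 7923 for Bcl11b and 9113 for Zeb2, with 2682.5 bases as the median of tested genes. Annotated antisense genes share exon bases with Zeb2 (Zeb2os, 653 bases), Gata3 (155 bases) and Eomes (118 bases). The strand setting of the counting is not given in the sources used here, so reads from these partners cannot be told apart.

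RefSeq promoter windows (GRCm38.p6) were found for all 10 factors, 14 windows in all, and the 250 bases before each annotated start were searched on both strands for letters that members of the group or their partners bind. The E-box CANNTG, the site of E proteins, was present in 5 of the 14 windows, against 66.2% of 32851 RefSeq windows of the same length. Its form CACCTG, which Zeb proteins bind and which is itself an E-box, was present in 3 windows, those of Tbx21, Prdm1 and the upstream start of Runx3, against 17.2% of all windows. The RUNX letters TGTGGT were present in 1 window, at the upstream start of Runx3, in 2 copies (ACCACA as read on the gene's strand), against 14% of all windows. The T-box letters GGTGTGA (3.33% of all windows), the GATA letters AGATAA (9.99%), the NFIL3 letters TTATGTAA (0.819%) and the Prdm1 letters GAAAGTGA (1.21%) were in none of the 14, and the STAT letters TTCNNNGAA (7.02%) were in 2 overlapping Zeb2 windows. The windows printed are those of the 3 factors with the CACCTG form and that of Eomes, which held no match. Each is written 5′ to 3′ on the gene's strand, with E-boxes and RUNX letters on either strand in capitals. A match is a description of the letters and does not show that a factor binds. For Prdm1, Gata3, Nfil3 and Bcl11b the only window lies inside the annotated gene, so its outermost 5′ end was not searched. That of Prdm1 ends at 44458998, while the gene, on the minus strand, reaches 44528558.
Tbx21, chr11:97115332-97115581, minus strand: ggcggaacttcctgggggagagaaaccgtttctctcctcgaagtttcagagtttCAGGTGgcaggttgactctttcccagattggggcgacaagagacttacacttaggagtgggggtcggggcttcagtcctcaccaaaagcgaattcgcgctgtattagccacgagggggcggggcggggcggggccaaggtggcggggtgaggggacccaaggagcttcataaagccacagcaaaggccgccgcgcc
Prdm1, chr10:44458749-44458998, minus strand: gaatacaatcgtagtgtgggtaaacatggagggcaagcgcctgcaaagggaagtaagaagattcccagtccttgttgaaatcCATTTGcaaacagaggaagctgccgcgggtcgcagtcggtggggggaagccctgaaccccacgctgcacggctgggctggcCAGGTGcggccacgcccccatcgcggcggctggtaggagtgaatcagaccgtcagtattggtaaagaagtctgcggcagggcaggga
Runx3, upstream start, chr4:135120395-135120644, plus strand: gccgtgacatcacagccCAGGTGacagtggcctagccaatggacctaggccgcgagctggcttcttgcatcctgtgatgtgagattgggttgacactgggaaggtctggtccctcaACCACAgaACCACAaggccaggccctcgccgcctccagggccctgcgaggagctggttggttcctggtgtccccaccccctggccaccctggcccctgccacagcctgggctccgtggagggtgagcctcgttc
Eomes, chr9:118477939-118478188, plus strand: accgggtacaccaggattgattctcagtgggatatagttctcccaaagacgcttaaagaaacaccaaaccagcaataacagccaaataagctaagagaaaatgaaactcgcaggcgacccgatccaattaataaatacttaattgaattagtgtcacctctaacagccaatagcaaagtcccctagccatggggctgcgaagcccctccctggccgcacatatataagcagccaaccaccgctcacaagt

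Which of the factors are abundant in these cells? Per gene length, Id2 was the highest of the 10 in all 4 groups, and Id3 and Bcl11b were among the lowest. In RPKM (reads per kilobase of transcript per 1e6 counts), computed from the counts and the deposited gene lengths, wild-type ex vivo cells held a mean of 799.5 for Id2, 299.7 for Tbx21, 188 for Eomes and 84.6 for Runx3. Prdm1 (28.1), Nfil3 (26.9), Zeb2 (26.7) and Gata3 (25.6) formed a group of near-equal levels, in which the libraries of Nfil3 and Zeb2 and those of Zeb2 and Gata3 overlapped. Bcl11b (1.05) and Id3 (0.945) came last, and their libraries overlapped too. In CIS-null ex vivo cells the upper part of the order was the same, and Nfil3, Gata3, Zeb2 and Prdm1 each overlapped the next, at 23.2 to 26.7. In culture the order changed. Wild-type in vitro cells held 929.6 RPKM of Id2, 61.5 of Tbx21, 46.9 of Eomes and 46.7 of Nfil3, with overlapping libraries for Eomes and Nfil3, and Zeb2 (1.70) stood below Bcl11b (2.21). In CIS-null in vitro cells Nfil3 was second at 57.0 RPKM, above Tbx21 (46.2) and Eomes (31.5), with no overlap between these neighbours. Zeb2 came last there, at 0.773 RPKM, and its libraries overlapped those of Id3 (1.01), as those of Id3 overlapped those of Bcl11b (1.36).

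**Figure D1:**
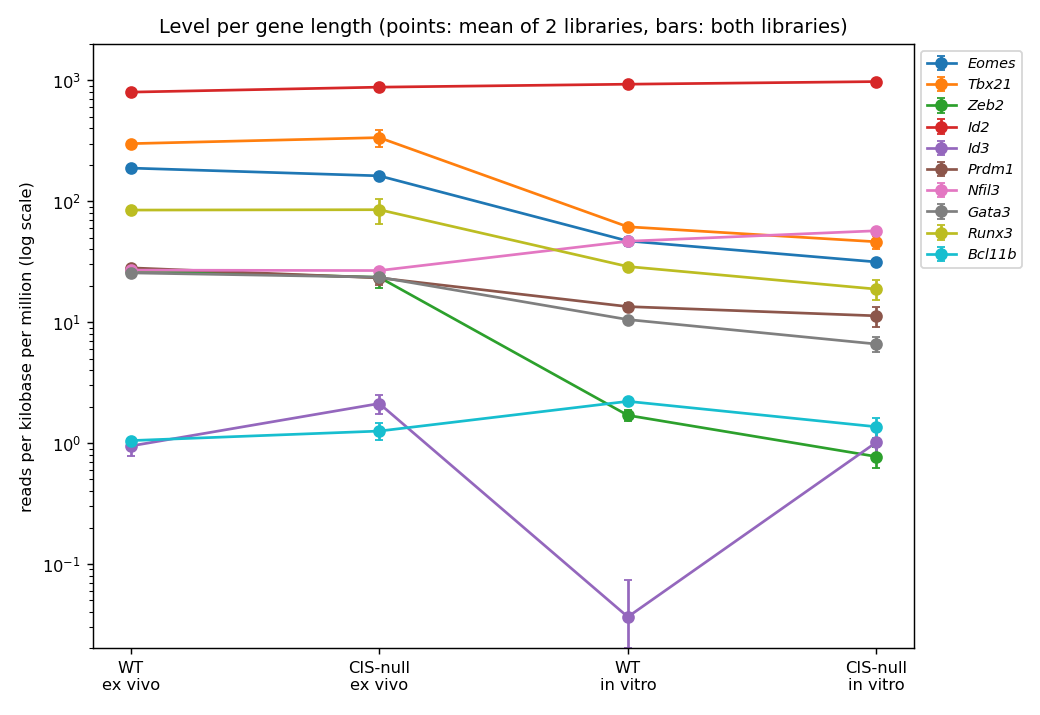
Level per gene length of each factor, in RPKM on a log axis, in the 4 groups; points are means of 2 libraries, bars reach to both libraries, and lines join the same gene. Id2 stays at the top, from 799.5 to 977.3, while Zeb2 goes from 26.7 in wild-type ex vivo to 0.773 in CIS-null in vitro cells; the lower bar of Id3 in wild-type in vitro cells is cut at the axis because 1 library held 0 counts.

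How do the factors change when NK cells are cultured? In wild-type cells 7 of the 10 factors fell (Zeb2, Id3, Tbx21, Eomes, Runx3, Gata3 and Prdm1), 2 rose (Bcl11b and Nfil3), and Id2 did not pass the test. Of all tested genes, 63.7% were called in this comparison, 31.6% as lower and 32.1% as higher. The median log2 fold change of the 10 was -1.42, against -0.002 for all tested genes. The ex vivo and in vitro libraries did not overlap for all 10, which held for 87.5% of tested genes. In CIS-null cells 6 fell (Zeb2, Tbx21, Eomes, Runx3, Gata3 and Prdm1) and 1 rose (Nfil3), so that 7 of 10 were called, close to the 72.4% called among all tested genes (37.5% as lower, 34.8% as higher). The median of the 10 was -1.45 there, against -0.046 for all tested genes, and 9 of 10 did not overlap, against 85.5%. Each of these 9 and 7 calls was kept in every alternative that tested the gene, among other scalings, filters and tools and fits without 1 library. In these bulk samples fewer cells of a type and less RNA per cell cannot be told apart.

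**Figure D2:**
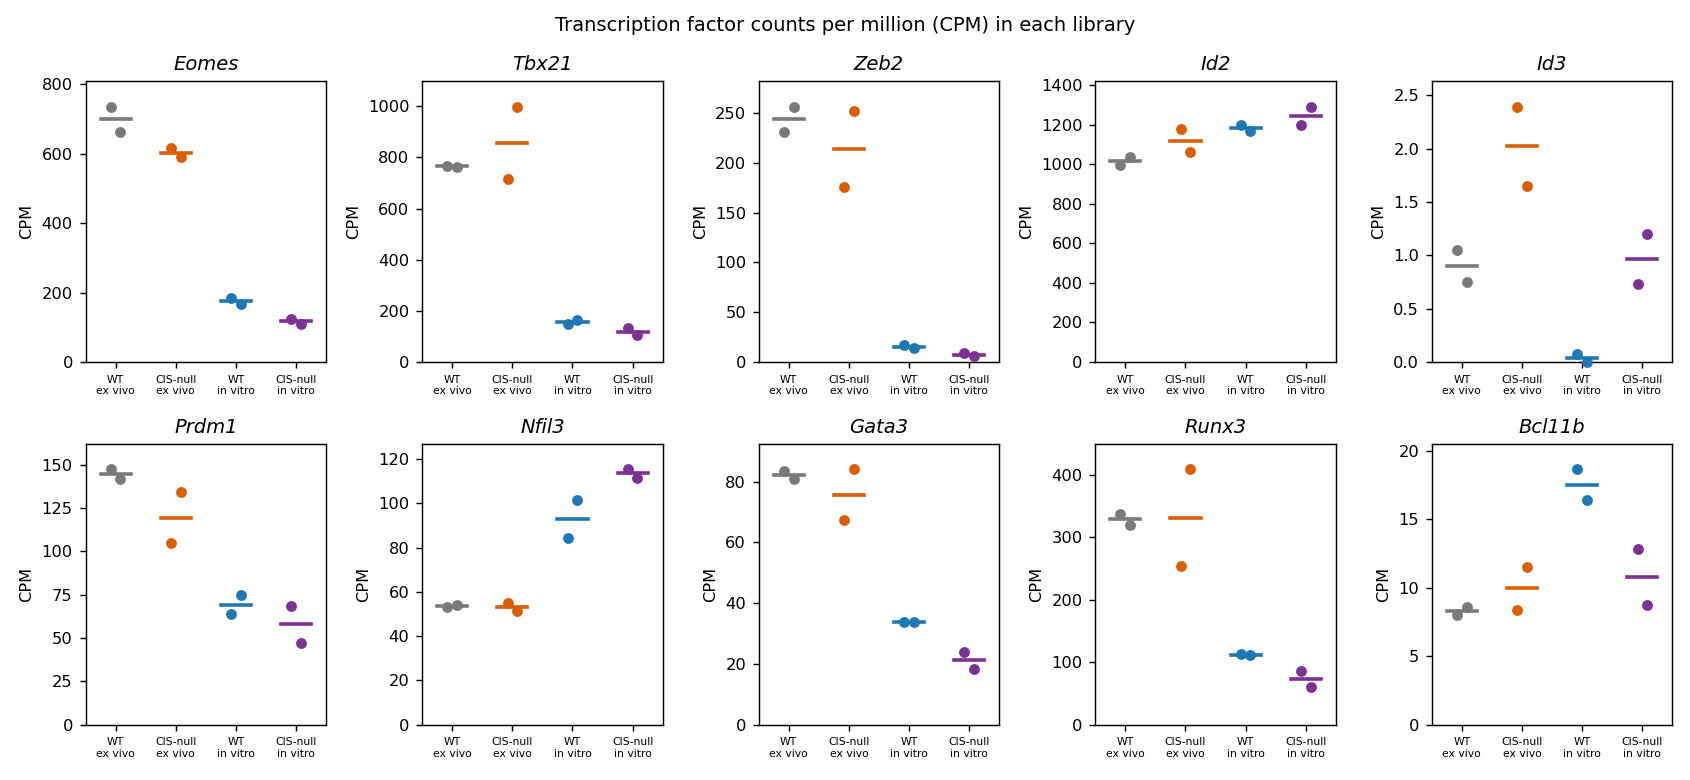
CPM (linear axes from 0) of each factor; each point is 1 library and each line the mean of the 2 libraries of a group. Eomes, Tbx21, Zeb2, Prdm1, Gata3 and Runx3 lie lower in all 4 in vitro than in all 4 ex vivo libraries, and Nfil3 lies higher.

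The T-box factors fell together. Eomes lay at 735.9 and 661.7 CPM in wild-type and 616 and 589.7 CPM in CIS-null libraries ex vivo, and at 183 and 165.5 CPM in wild-type and 124 and 109 CPM in CIS-null libraries in vitro. Every ex vivo library thus lay far above every in vitro library, and the lowest values were those of CIS-null cells in culture. The log2 fold change on culture was -2.0 in wild-type cells (standard error 0.111, n = 2 per group, adjusted p = 2.36e-06 by edgeR) and -2.37 in CIS-null cells (standard error 0.113, adjusted p = 8.70e-07 by edgeR). Tbx21 lay at 765 and 764 CPM in wild-type and 716 and 999 CPM in CIS-null libraries ex vivo, and at 149 and 165 CPM in wild-type and 132 and 103 CPM in CIS-null libraries in vitro. The spread between the CIS-null ex vivo libraries was the widest among the groups. On culture Tbx21 changed by -2.29 in wild-type cells (standard error 0.179, adjusted p = 1.46e-05 by edgeR) and by -2.86 in CIS-null cells (standard error 0.183, adjusted p = 3.55e-06 by edgeR). The ratio of Eomes to Tbx21 per gene length stayed below 1 in all 8 libraries. It was 0.661 and 0.595 in wild-type ex vivo, 0.591 and 0.405 in CIS-null ex vivo, 0.845 and 0.690 in wild-type in vitro and 0.645 and 0.727 in CIS-null in vitro libraries. Within each genotype both in vitro ratios lay above both ex vivo ratios, while across genotypes they overlapped.

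Zeb2, a zinc finger repressor needed for the last steps of NK maturation, had the steepest fall of the abundant members. Its level was 230.9 and 256 CPM in wild-type and 176 and 252 CPM in CIS-null libraries ex vivo, and 17.1 and 13.8 CPM in wild-type and 8.44 and 5.64 CPM in CIS-null libraries in vitro. The log2 fold change on culture was -3.98 in wild-type cells (standard error 0.232, adjusted p = 3.01e-06 by edgeR), a 15.8-fold fall, and -4.92 in CIS-null cells (standard error 0.249, adjusted p = 1.07e-06 by edgeR), a 30.3-fold fall. Among tested genes, 6.28% and 5.04% had a larger change in either direction. Monocytes and macrophages also express Zeb2. Their 9 other markers summed to 97.1 to 169 CPM ex vivo and 18.6 to 29.4 CPM in vitro, with 3 of 9 at 0 in each in vitro group. Cd68 alone held 17.8 to 27.1 CPM in vitro. Mean Csf1r, the highest of the 9 ex vivo, went from 41.4 to 0.0174 CPM in wild-type and from 56.2 to 0.0193 CPM in CIS-null cells. In wild-type cells 6 of the 9 were called lower and 1 higher, against 31.6% and 32.1% of tested genes. In CIS-null cells 7 were lower and 1 higher, against 37.5% and 34.8%. The part of these cells in the fall of Zeb2 was not tested. Its relative Zeb1 changed less, with a log2 fold change of -0.25 in wild-type cells (adjusted p = 0.147 by edgeR) and -0.94 in CIS-null cells (standard error 0.142, adjusted p = 0.000394 by edgeR). Zeb1 in wild-type cells passed as lower in 3 of 19 alternatives, and with the length and GC trend removed it was -0.05 in wild-type cells and -0.48 in CIS-null cells. The ratio of Zeb2 to Zeb1 per gene length was 3.21 and 3.15 in wild-type ex vivo and 2.33 and 3.35 in CIS-null ex vivo libraries, against 0.268 and 0.211 in wild-type in vitro and 0.186 and 0.169 in CIS-null in vitro libraries. Zeb2 was thus the more abundant of the pair in every ex vivo library and the less abundant in every in vitro library.

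**Figure D3:**
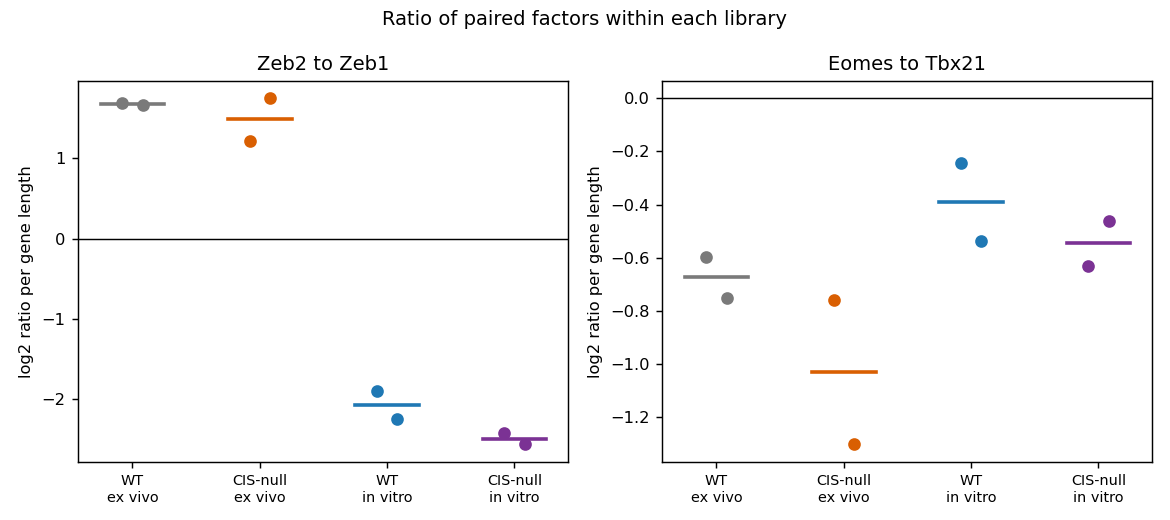
Ratio per gene length, on a log2 scale, of Zeb2 to Zeb1 (left) and of Eomes to Tbx21 (right) in each library; points are libraries and lines are the mean of 2. The log2 ratio of Zeb2 to Zeb1 is 1.22 or more ex vivo and -1.90 or less in vitro, while that of Eomes to Tbx21 lies between -1.30 and -0.24 in all 8 libraries.

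Prdm1 encodes the repressor Blimp-1, which restrains proliferation in mature lymphocytes. Prdm1 lay at 147 and 142 CPM in wild-type and 105 and 134 CPM in CIS-null libraries ex vivo, and at 63.7 and 74.6 CPM in wild-type and 68.7 and 47.3 CPM in CIS-null libraries in vitro. All ex vivo libraries lay above all in vitro libraries. Its log2 fold change was -1.06 in wild-type cells (standard error 0.185, adjusted p = 0.00117 by edgeR) and -1.04 in CIS-null cells (standard error 0.186, adjusted p = 0.000988 by edgeR), where it was -0.66 with the length and GC trend removed. Runx3, a Runt factor that represses Cd4 and sustains cytotoxic lymphocytes, lay at 337.6 and 320.4 CPM in wild-type and 253.5 and 409 CPM in CIS-null libraries ex vivo, and at 112 and 112 CPM in wild-type and 86.2 and 59.8 CPM in CIS-null libraries in vitro. Runx3 changed by -1.55 in wild-type cells (standard error 0.230, adjusted p = 0.000498 by edgeR) and by -2.18 in CIS-null cells (standard error 0.235, adjusted p = 5.53e-05 by edgeR). Its partner subunit Cbfb did not pass in either genotype (0.13, adjusted p = 0.222 by edgeR, and 0.20, adjusted p = 0.0693 by edgeR). The other Runt factors fell in both, with log2 fold changes of -1.35 and -1.51 for Runx1 and -0.53 and -1.11 for Runx2 in wild-type and CIS-null cells. With the length and GC trend removed Runx2 was -0.20 in wild-type cells and did not pass (adjusted p = 0.0503 by edgeR), nor did it without either wild-type ex vivo library (0.06 and 0.0503) or wild-type in vitro replicate 2 (0.078). In CIS-null cells Runx1 (-0.90) and Runx2 (-0.41) passed at a smaller size with that trend removed.

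Gata3, which drives T cells and type 2 innate lymphoid cells and also acts in NK cells, fell, whereas Bcl11b, the guardian of T cell identity, was low in all libraries and rose in wild-type cells. Gata3 lay at 83.5 and 80.9 CPM in wild-type and 67.4 and 84.0 CPM in CIS-null libraries ex vivo, and at 33.7 and 33.9 CPM in wild-type and 24.0 and 18.3 CPM in CIS-null libraries in vitro. Its log2 fold change was -1.28 in wild-type cells (standard error 0.145, adjusted p = 0.000113 by edgeR) and -1.84 in CIS-null cells (standard error 0.150, adjusted p = 1.24e-05 by edgeR). Its cofactor Zfpm1 fell as well (-1.56 and -1.87), with -1.07 and -1.06 where the length and GC trend was removed. Bcl11b lay at 8.03 and 8.56 CPM in wild-type and 8.38 and 11.5 CPM in CIS-null libraries ex vivo, and at 18.7 and 16.4 CPM in wild-type and 12.8 and 8.77 CPM in CIS-null libraries in vitro. In wild-type cells it changed by 1.08 (standard error 0.213, adjusted p = 0.00234 by edgeR). In CIS-null cells the libraries overlapped and the value was 0.12 (standard error 0.214, adjusted p = 0.644 by edgeR), but it passed as higher once a trend with gene length and base composition was taken out of each library (0.87, adjusted p = 0.000377 by edgeR).

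T cells express both factors, and T cell markers were present in all libraries. The 12 markers, none of them at 0 in any group, summed to 325 to 448 CPM ex vivo, 480.4 and 395 CPM in wild-type in vitro cells and 1301 and 1315 CPM in CIS-null in vitro cells. Cd4 lay at a mean of 2.51 and 2.58 CPM ex vivo and 0.0872 and 0.020 CPM in vitro in wild-type and CIS-null cells, Cd8a at 0.897, 1.76, 0.852 and 7.61 CPM over the groups in that order with ex vivo first, and Cd3e at 3.02, 5.40, 6.69 and 77.7 CPM. The highest T cell marker sums were in the CIS-null in vitro libraries. The largest means there were those of Cd3g (473 CPM), Trbc2 (286) and Cd3d (256). Those of Cd5 (1.02), Cd6 (0.196) and Cd8b1 (0.548) lay below their CIS-null ex vivo means (1.37, 2.30 and 1.08). On culture of CIS-null cells 6 of the 12 markers were called higher and 3 lower, against 34.8% and 37.5% of tested genes. The part of T cells in the values of Gata3 and Bcl11b was not tested.

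Id2 and Id3 hold back E proteins, and only Id2 was abundant. Id2 lay at 996 and 1038 CPM in wild-type and 1177 and 1059 CPM in CIS-null libraries ex vivo, and at 1199.9 and 1165 CPM in wild-type and 1196 and 1291 CPM in CIS-null libraries in vitro. Its log2 fold change on culture was 0.22 in wild-type cells (standard error 0.0983, adjusted p = 0.0821 by edgeR) and 0.15 in CIS-null cells (standard error 0.0983, adjusted p = 0.189 by edgeR). In wild-type cells the rise passed when the ex vivo and in vitro libraries of that genotype were fitted alone (0.22, adjusted p = 0.0111 by edgeR). The direction of Id2 depended on the processing. With the trend in gene length and GC content removed it was lower in culture, at -0.34 in wild-type (adjusted p = 0.0038 by edgeR) and -0.60 in CIS-null cells (adjusted p = 9.46e-05 by edgeR), and by limma on log2 RPKM it was -0.03 in CIS-null cells (adjusted p = 0.848). Id3 had 25 and 19 counts in the wild-type and 52 and 42 counts in the CIS-null libraries ex vivo, 2 and 0 counts in the wild-type and 19 and 30 counts in the CIS-null libraries in vitro. In CPM this was 1.05 and 0.750, 2.39 and 1.65, 0.0695 and 0, and 0.732 and 1.20 in the same order. The wild-type ex vivo level was 25.6 times the wild-type in vitro level, with a 95% exact counting interval of 6.69 to 218 that covers counting error only (adjusted p = 0.00109 by edgeR). In CIS-null cells the log2 fold change was -1.06 (standard error 0.451, adjusted p = 0.0609 by edgeR), and it passed in 5 of 18 alternatives, with the lowest p where the trend was removed (-1.69, adjusted p = 0.00489 by edgeR). Per gene length Id2 exceeded Id3 by a factor of 368 or more in each of the 7 libraries with any Id3 count.

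The E proteins that Id2 and Id3 bind moved as follows. Tcf3, which encodes E2A, fell on culture (-0.82 without and -1.20 with CIS deletion), as did Tcf12, which encodes HEB (-0.40 and -0.69). Tcf4, which encodes E2-2, rose in wild-type cells (0.34, standard error 0.105, adjusted p = 0.0206 by edgeR) and fell in CIS-null cells (-0.79, standard error 0.107, adjusted p = 0.000208 by edgeR). The rise of Tcf4 did not pass without any 1 of the 4 wild-type libraries (adjusted p from 0.0735 to 0.111 by edgeR) or by limma on log2 RPKM (0.069). With the length and GC trend removed the rise was 0.60 (adjusted p = 0.000228 by edgeR), and the fall was -0.19 and did not pass (adjusted p = 0.0754 by edgeR). The fall of Tcf12 in wild-type cells did not pass without either ex vivo library of that genotype (0.0665 and 0.0933) or without in vitro replicate 2 (0.089). In CIS-null cells Tcf3 (-0.63) and Tcf12 (-0.36) passed at a smaller size with the trend removed.

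Nfil3, a bZIP factor needed for NK development from progenitors, was the member that rose in both genotypes. Its level was 53.4 and 53.9 CPM in wild-type and 54.9 and 51.6 CPM in CIS-null libraries ex vivo, and at 84.4 and 101.6 CPM in wild-type and 115 and 112 CPM in CIS-null libraries in vitro. The 4 ex vivo libraries thus lay close together, from 51.6 to 54.9 CPM, and below all in vitro libraries. Its log2 fold change was 0.79 in wild-type cells (standard error 0.105, adjusted p = 0.000271 by edgeR) and 1.09 in CIS-null cells (standard error 0.106, adjusted p = 3.05e-05 by edgeR).

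**Figure D4:**
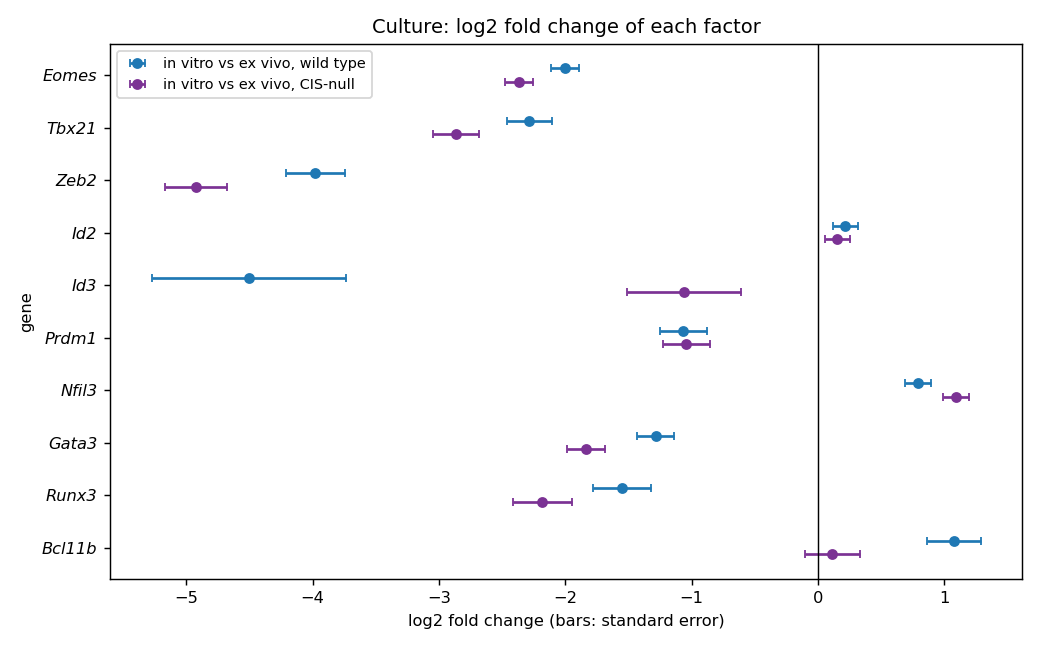
Log2 fold change of each factor between in vitro and ex vivo cells, in wild-type and CIS-null cells; points are edgeR estimates and bars standard errors. Zeb2 lies farthest to the left among members with many counts, at -3.98 and -4.92, and Nfil3 lies right of 0 in both genotypes; Id3 in wild-type cells rests on 2 in vitro counts.

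Genes around these factors were described with lists. Of 19 tested other lymphoid transcription factors, 13 fell and 3 rose on culture in wild-type cells (median log2 fold change -1.20), and 14 fell and 3 rose in CIS-null cells (median -1.69). Klf2, which controls lymphocyte trafficking, went from 666.9 to 2.51 CPM in wild-type and from 648 to 1.24 CPM in CIS-null cells, and Bach2, a repressor of effector genes, fell in both (-2.38 and -3.17). These counts stand beside 63.7% of all tested genes called for wild type and 72.4% for CIS-null. Of 15 tested relatives and direct partners of the members, 10 fell and 1 rose in wild-type cells, and 13 fell and 0 rose in CIS-null cells. Of 15 genes known to be activated by T-bet or Eomes, 9 fell and 4 rose in wild-type cells (median -0.31), and 8 fell and 5 rose in CIS-null cells (median -0.32). These moved apart from each other. S1pr5, a sphingosine phosphate receptor for exit from tissue, went from 536 to 0.245 CPM in wild-type cells and Cx3cr1, a chemokine receptor, from 176 to 0.0876 CPM. Gzmb, which encodes granzyme B, rose by 3.60 (standard error 0.126, adjusted p = 3.12e-07 by edgeR).

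All 10 genes of mature NK cells and all 10 of immature NK cells were called in each genotype, against the shares of all genes given above. Genes of mature NK cells fell in 8 of 10 cases in each genotype, with a median of -3.72 for wild type and -3.22 for CIS-null, and 2 rose. S1pr5, Cx3cr1, Klrg1, Gzmb and Prf1 belong both to this list and to the genes activated by T-bet or Eomes. Cma1, a chymase, went from 384 to 0.471 CPM in wild-type cells, and Klrg1, an inhibitory receptor, from 255 to 12.0 CPM. Of 10 genes of immature NK cells, 6 rose and 4 fell in each genotype, with medians of 2.19 and 1.65. Tnfsf10, which encodes TRAIL, rose from 31.4 to 387 CPM in wild-type cells, while the interleukin 7 receptor gene Il7r went from 47.9 to 0.976 CPM. The 4 markers of type 1 innate lymphoid cells (Itga1, Cxcr6, Tnfsf10 and Inpp4b), relatives that need Tbx21 but not Eomes, rose in both genotypes. They summed to 42.7 to 82.4 CPM ex vivo and 935 to 1219 CPM in vitro, and their part in the falls of Eomes and Tbx21 was not tested.

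Does loss of CIS change the factors in cells taken directly from the mouse? Ex vivo, 0 of 10 factors passed by edgeR, where 0.0607% of tested genes were called. At an unadjusted p under 0.05 the count was 1 (Id3), against 6.40% of tested genes, and DESeq2, limma-voom and limma on log2 RPKM each called 0. Eomes and Prdm1 were lower and Id2 and Id3 higher without overlap, 4 of 10 members, against 40.3% of tested genes. Eomes had a log2 fold change of -0.21 (standard error 0.107, adjusted p = 0.766 by edgeR), with 736 and 662 CPM in wild-type and 616 and 589.7 CPM in CIS-null libraries. Id3, at 44 counts over both wild-type and 94 over both CIS-null libraries, had 1.16 (standard error 0.456, adjusted p = 0.748 by edgeR). B cells also express Id3, and their 8 markers summed to 342 and 318 CPM in wild-type and 572 and 220.4 CPM in CIS-null libraries ex vivo. Their part in the Id3 values was not tested. The values of the other factors ran from -0.27 (Prdm1) to 0.27 (Bcl11b). Nfil3 (-0.01, SE 0.106) and Runx3 (0.01, SE 0.224) had the smallest differences.

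The CIS-null ex vivo libraries differed from each other in several factors. Replicate 1 lay below replicate 2 by a log2 ratio of -0.69 for Runx3, -0.52 for Zeb2, -0.48 for Tbx21, -0.46 for Bcl11b, -0.36 for Prdm1 and -0.32 for Gata3, while Eomes (0.06), Nfil3 (0.09) and Id2 (0.15) lay close. In the wild-type ex vivo pair the same 9 ratios lay between -0.15 and 0.15. Across the 13184 tested genes the ratio of the CIS-null replicates fell with gene length (Spearman correlation -0.370), against -0.110 in the wild-type pair. These correlations are across genes, which are not independent replicates. Without CIS-null replicate 1 the values of Zeb2 (0.05) and Gata3 (0.03) turned positive, and without replicate 2 that of Tbx21 turned negative (-0.09).

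How does loss of CIS change the factors in culture? In vitro 4 factors were lower in CIS-null cells (Zeb2, Bcl11b, Gata3 and Eomes) and 1 was higher (Id3), so that 5 of 10 were called, against 25.6% of tested genes (14.6% as lower, 11% as higher). The libraries did not overlap for 8 of 10, against 68.8% of tested genes. The median log2 fold change of the 10 was -0.49, against 0 for all tested genes. With library totals in place of scaling factors the median of all genes moved to -0.133, and the split of calls from 1445 higher and 1929 lower to 744 and 2772. With the length trend removed it was 1594 higher and 1350 lower. Xist and the Y-linked genes separated these groups too.

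Zeb2 went from 17.1 and 13.8 CPM in wild-type to 8.44 and 5.64 CPM in CIS-null libraries, a log2 fold change of -1.13 (standard error 0.237, n = 2 per group, adjusted p = 0.013 by edgeR) or 2.19-fold. Gata3 went from 33.7 and 33.9 to 24.0 and 18.3 CPM (-0.67, standard error 0.149, adjusted p = 0.0153 by edgeR), and Eomes from 183 and 165.5 to 124 and 109 CPM (-0.58, standard error 0.109, adjusted p = 0.00959 by edgeR). Bcl11b went from 18.7 and 16.4 to 12.8 and 8.77 CPM (-0.70, standard error 0.209, adjusted p = 0.0411 by edgeR). In each of the 4 the lower wild-type library lay above the higher CIS-null library. Runx3 (-0.62, standard error 0.228, adjusted p = 0.0775 by edgeR) and Tbx21 (-0.41, standard error 0.172, adjusted p = 0.111 by edgeR) were lower without overlap and did not pass. Nfil3 was higher without overlap and did not pass (0.29, standard error 0.104, adjusted p = 0.0725 by edgeR). Prdm1 (-0.25, adjusted p = 0.343 by edgeR) and Id2 (0.07, adjusted p = 0.622 by edgeR) overlapped between genotypes.

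Id3 was the member with the largest genotype difference in vitro, in RNA that was scarce. It had 2 counts over both wild-type and 49 over both CIS-null libraries, a ratio of 27.5 with a 95% exact counting interval of 7.23 to 234 that covers counting error only (adjusted p = 0.00657 by edgeR). The call was kept in each alternative that tested it except the fit without CIS-null in vitro replicate 2 (adjusted p = 0.0548 by edgeR). T cells express Id3, and 8 of 12 T cell markers were higher and 0 lower in CIS-null in vitro cells, with the sums given above. Of all tested genes 11% were higher and 14.6% lower. The 8 B cell markers summed to 96.7 to 156 CPM in wild-type and 88.2 to 92.7 CPM in CIS-null in vitro libraries, with 4 of 8 at 0 in each group. Their part in the Id3 difference was not tested.

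The 4 lower calls differed in how they held. Without CIS-null in vitro replicate 2 none of them passed by edgeR (adjusted p = 0.0692 for Eomes, 0.109 for Zeb2, 0.102 for Gata3 and 0.248 for Bcl11b), and the count of members called fell from 5 to 0. Without wild-type in vitro replicate 1 it was 1, with adjusted p = 0.0738 by edgeR for Eomes, 0.0817 for Zeb2, 0.0804 for Gata3 and 0.187 for Bcl11b. Without wild-type in vitro replicate 2 it was 3, with Gata3 (0.0718) and Bcl11b (0.0947) lost. Without either CIS-null ex vivo library it rose to 7, with Tbx21 (0.0384 and 0.0387) and Runx3 (0.0189 and 0.0192) added. Runx3 also passed without CIS-null in vitro replicate 1 (0.0422), by DESeq2 (0.0216), with library totals (0.0489) and with the 4 in vitro libraries fitted alone (0.039), and Nfil3 passed by DESeq2 (0.0464). Bcl11b did not pass either when a wild-type ex vivo library was left out (0.0787 and 0.0798), by limma on log2 RPKM (0.0985) and with the length trend removed, where its value was -0.17 (adjusted p = 0.389 by edgeR). With the trend removed Eomes (-0.36, adjusted p = 0.0184 by edgeR), Zeb2 (-0.60, 0.0221) and Gata3 (-0.59, 0.0115) kept their calls, and Id2 was lower (-0.25, adjusted p = 0.041 by edgeR).

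Gene length moved with the genotype difference in vitro. All 4 lower factors are longer than the median tested gene (3215 to 9113 bases) and Id3 is shorter (953 bases). Over 13184 tested genes the log2 fold change fell with length (Spearman correlation -0.461). The replicates of the CIS-null in vitro group differed in the same respect (0.451 for replicate 1 over replicate 2, against 0.020 in the wild-type pair). Between them, replicate 1 exceeded replicate 2 by a log2 ratio of 0.58 for Zeb2, 0.55 for Bcl11b, 0.54 for Prdm1, 0.53 for Runx3, 0.39 for Gata3, 0.36 for Tbx21 and 0.18 for Eomes, with Nfil3 at 0.05 and Id2 at -0.11.

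**Figure D5:**
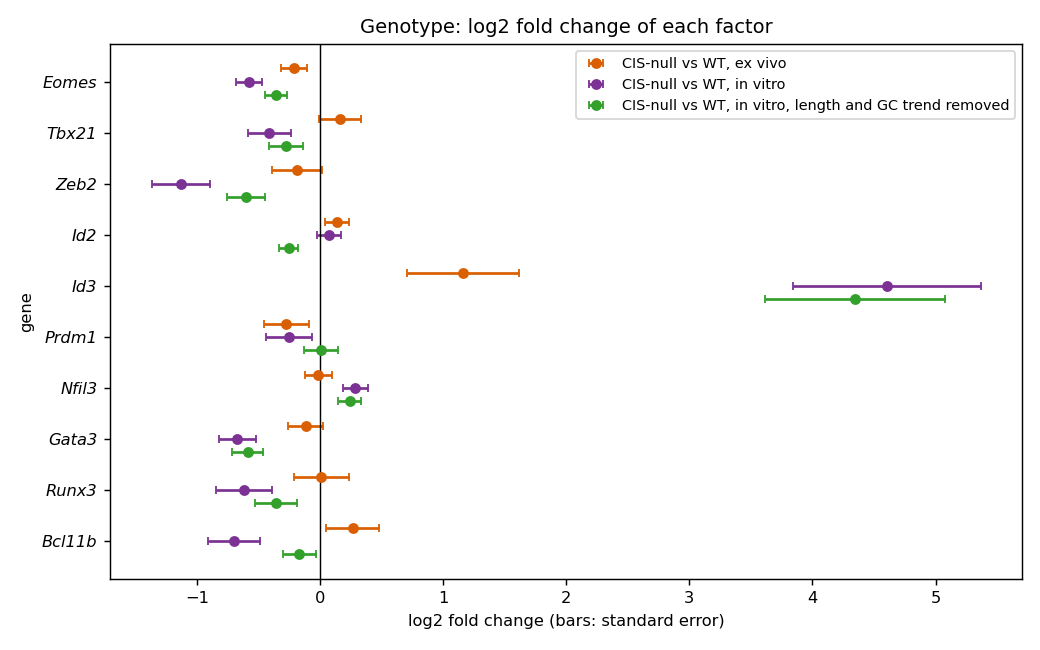
Log2 fold change of each factor between CIS-null and wild-type cells, ex vivo, in vitro, and in vitro with the gene length and base composition trend taken out of each library; points are edgeR estimates and bars standard errors. In vitro Zeb2 goes from -1.13 to -0.60 and Bcl11b from -0.70 to -0.17 when the trend is removed, while Gata3 (-0.67 and -0.59) and Id3 (4.61 and 4.34) move little.

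Other regulators and the genes known to depend on these factors went different ways in vitro. Of 19 other lymphoid transcription factors, 10 were lower and 1 higher in CIS-null cells (median -0.64), where 25.6% of all tested genes were called, 14.6% as lower and 11% as higher. Mef2c (-1.95, standard error 0.372, adjusted p = 0.00993 by edgeR), Bach2 (-1.16, standard error 0.205, adjusted p = 0.00827 by edgeR) and Rora (-1.08, standard error 0.198, adjusted p = 0.00899 by edgeR) fell, and Ikzf2, which encodes Helios, rose (1.07, standard error 0.228, adjusted p = 0.0135 by edgeR). Without CIS-null in vitro replicate 2 Mef2c (0.0665), Bach2 (0.073) and Rora (0.076) did not pass, and without wild-type in vitro replicate 1 Rora (0.0641) and Ikzf2 (0.0757) did not, while Mef2c was -1.20. Bach2 was -0.60 with the length and GC trend removed, and Ikzf2 was 0.71 without CIS-null in vitro replicate 1. Of 15 relatives and partners, 5 were lower and 0 higher (median -0.60), among them the E protein genes Tcf4 (-0.91, adjusted p = 0.00326 by edgeR) and Tcf3 (-0.60, adjusted p = 0.00771 by edgeR), Zeb1 (-0.71, adjusted p = 0.0111 by edgeR), Runx2 (-0.63, adjusted p = 0.0171 by edgeR) and Zfpm1 (-0.61, adjusted p = 0.03 by edgeR). With the length and GC trend removed Runx2 (-0.15, adjusted p = 0.195 by edgeR) and Zfpm1 (-0.18, adjusted p = 0.195 by edgeR) did not pass, and Tcf4 (-0.46), Tcf3 (-0.27) and Zeb1 (-0.39) passed at a smaller size. Without either wild-type in vitro library or CIS-null in vitro replicate 2, Zeb1 (0.0559 to 0.0597), Runx2 (0.056 to 0.127) and Zfpm1 (0.113 to 0.158) did not pass, and Zfpm1 did not without either wild-type ex vivo library (0.0658 and 0.0665). Tcf12 (-0.36, adjusted p = 0.0574 by edgeR) and Cbfb (0.18, adjusted p = 0.158 by edgeR) did not pass.

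Of the 15 genes known to be activated by T-bet or Eomes, 5 were higher and 0 lower in CIS-null in vitro cells (median 0.20). Eomes was lower there. Of all tested genes 25.6% were called, 11% as higher and 14.6% as lower, which is the share to set beside each list here. Gzmb went from 11562 to 24556 CPM (1.09, standard error 0.115, adjusted p = 0.00297 by edgeR) and Ifng, which encodes interferon gamma, from 73.9 to 128 CPM (0.79, standard error 0.175, adjusted p = 0.0154 by edgeR). By limma on log2 RPKM Gzmb was 0.13 and did not pass (adjusted p = 0.757). With length added back, the 3 highest values of the deposited log2 RPKM files were equal in all 8 libraries. This limits the differences that the most abundant genes can show, and Gzma, 0.85 in the main fit, was 0.0 there. Ccl4 (0.81) did not pass with library totals (0.68), by limma on log2 RPKM (0.65) or with the length and GC trend removed (0.42). Ifng did not pass with the length and GC trend removed (0.46, adjusted p = 0.175 by edgeR), without wild-type in vitro replicate 1 (0.0881) or without CIS-null in vitro replicate 1 (0.0574). Of 10 genes of mature NK cells 3 were higher and 0 lower (median 0.37), with Ly6c2 at 1.97 (standard error 0.157, adjusted p = 0.00124 by edgeR) and the perforin gene Prf1 at 0.62 (standard error 0.114, adjusted p = 0.0093 by edgeR). The other was Gzmb, and both Gzmb and Prf1 were already counted among the 5 above. Prf1 did not pass by limma on log2 RPKM (0.38, adjusted p = 0.0788) or without wild-type in vitro replicate 2 (0.0627). Of 10 genes of immature NK cells 1 was higher and 3 lower (median -0.13), with the receptor tyrosine kinase gene Kit at -1.12 (standard error 0.164, adjusted p = 0.00528 by edgeR), which did not pass without CIS-null in vitro replicate 2 (0.0509). Ex vivo 0 genes of any of these 5 lists passed.

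Was the genotype difference itself different between the states? This was tested as the difference between the in vitro and the ex vivo log2 fold change, which equally compares the culture response of the genotypes. By edgeR 0 of 10 factors passed, where 0.137% of tested genes were called, and 6 of 10 had an unadjusted p under 0.05, against 19.6% of tested genes. By DESeq2 1 passed of the 9 with an adjusted value, Zeb2 (-0.91, DESeq2 adjusted p = 0.0419), and by limma-voom 0. The edgeR values of the 6 were 3.45 for Id3 (SE 0.951, adjusted p = 0.128), -0.96 for Bcl11b (SE 0.302, adjusted p = 0.156), -0.94 for Zeb2 (SE 0.311, adjusted p = 0.168), -0.58 for Tbx21 (SE 0.242, adjusted p = 0.241), -0.55 for Gata3 (SE 0.205, adjusted p = 0.205) and -0.36 for Eomes (SE 0.152, adjusted p = 0.241). Among the relatives and partners 1 of 15 passed, Tcf4 (-1.13, standard error 0.150, adjusted p = 0.0427 by edgeR), whose product is an E protein. That call was lost in 10 of 18 alternatives, among them RLE factors (0.0513), limma on log2 RPKM (0.0944), a replicate block (0.0929), no X- and Y-linked genes (0.0701) and 6 fits without 1 library (0.0572 to 0.295, every library except CIS-null replicate 1 of either state). The genotype and culture comparisons share libraries, so their values are not independent of each other.

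Genes with the most similar pattern were sought for 3 members among 6859 named genes with a mean of at least 20 CPM, by the root mean square difference of log2 CPM over the 8 libraries after each gene was centred on its own mean. For Eomes these were Fzd5 (0.069), a Wnt receptor gene, Acss1 (0.086) and Man1c1 (0.099). Fzd5 went from 129.5 to 31.5 CPM on culture of wild-type cells and from 115 to 22.0 CPM on that of CIS-null cells. For Tbx21 they were Marveld1 (0.099), Rasa3 (0.109), which encodes a Ras and Rap inhibitor, and Cyth1 (0.131). For Prdm1 they were Tsc22d2 (0.092), Tmc8 (0.095) and Braf (0.105), a kinase gene of the ERK pathway. The 8 libraries form 4 groups that separate mainly by culture, so closeness here describes the same size of change over those groups.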

How the data were processed

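The deposited count table holds raw read counts that the authors made for 27179 Entrez genes, 565 of them with no symbol, together with a length in bases for each gene. Subread, featureCounts and limma are the tools, and GRCm38/mm10 the build, per the submitters' processing notes; versions, strand setting and the treatment of shared reads are not given in the sources used here. The per-sample files that the authors deposited hold log2 RPKM of 12372 genes. With log2 length added back, their 3 highest values were equal in all 8 files, and 81.8% of all ranks were equal within 0.02, so they may have been quantile normalised, which the sources used here do not state. They served for 1 alternative.

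All tests ran on the raw counts in edgeR 4.0.16 (R 4.3.3). filterByExpr (minimum count 10, minimum total 15) left 13184 genes, scaling was by trimmed mean of M values, and 1 model with a mean for each of the 4 groups covered the 8 libraries, giving 4 residual and 4.45 prior degrees of freedom. Two-sided quasi-likelihood tests were adjusted by the method of Benjamini and Hochberg across the tested genes, at 0.05. Standard errors were derived from the F statistic. Depth was 21.5 to 28.1 M counts, and the spread of replicates exceeded sampling noise in all groups (5.96 to 34.2 times, as chi-square per degree of freedom). Alternatives were RLE factors or library totals, no filter or at least 5 CPM in 2 libraries, DESeq2 1.42.0, limma-voom and limma on log2 RPKM (limma 3.58.1), the compared samples alone, a replicate block, no X- or Y-linked genes, each library left out, and splines of gene length and GC content (4 degrees of freedom, 11976 genes) taken out of each library.

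The members, gene lists and tests were chosen with earlier results of these data known. The text names all members, Cish, Xist and Eif2s3y, direct partners, and the 3 nearest patterns of 3 members. From each list it names up to 4 called genes per comparison with the largest change. Single T cell markers, and the single NK and macrophage markers given with values, were named after their values were seen. Jchain and Adgre1 were matched under older symbols by Entrez ID.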

Additional observations from a re-analysis of the deposited data

How the results depend on the processing

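Each culture call of the main fit was kept in every alternative that tested the gene, and Id3 was not tested with the 5 CPM filter. Members not called in the main fit passed in some alternatives. In wild-type cells Id2 passed as higher with the compared samples alone and as lower with the trend removed. In CIS-null cells 7 to 10 members passed. With the trend removed Id2 and Id3 were added as lower and Bcl11b as higher there. Id3 also passed with library totals, by limma-voom and with the compared samples alone, among others. Ex vivo by genotype 0 members passed in any alternative. In vitro the count by genotype was 5, and ran from 0 to 7 with 1 library left out. For the interaction it was 0, and 1 by DESeq2. Over all genes, DESeq2 called 45 against 8 ex vivo and 592 against 18 for the interaction; no filter gave 23 and 75, the trend removed 13 and 271, and fits without 1 library 3 to 41 and 6 to 378. For the interaction limma on log2 RPKM called 1 and the fit without X- and Y-linked genes 1. In vitro, fits without 1 library called 500 to 4296 against 3374. With library totals the median of all genes was -0.17 instead of -0.046 for culture in CIS-null cells and -0.155 instead of -0.042 for the interaction.

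Values near 0 changed sign; the cause was not tested. Ex vivo by genotype, Runx3 was 0.01, and -0.0079 with library totals, -0.0040 with no filter, -0.0033 with the 5 CPM filter, -0.032 by limma-voom, -0.067 by limma on log2 RPKM and -0.0030 with the compared samples alone. With the trend removed Zeb1 was 0.036 and Runx2 0.065. With 1 library left out, the lowest and highest values were -0.37 and 0.31 for Runx3, -0.093 and 0.39 for Tbx21, -0.47 and 0.050 for Zeb2, -0.058 and 0.034 for Nfil3, -0.28 and 0.032 for Gata3, -0.11 and 0.066 for Zeb1 and -0.24 and 0.11 for Runx2. In vitro by genotype, Id2 was -0.063 with library totals, -0.15 by limma on log2 RPKM and -0.25 with the trend removed, where Prdm1 was 0.0085 and Runx1 0.053. On culture, Id2 with the trend removed was -0.34 for wild type and -0.60 for CIS-null, and -0.028 in CIS-null cells by limma on log2 RPKM. Bcl11b on culture in CIS-null cells was -0.0059 with library totals and -0.18 to 0.37 with 1 library left out. For the interaction, Prdm1 was -0.089 with library totals and -0.28 to 0.27 with 1 library left out, and Id2 -0.14 to 0.017.

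With a replicate block 4 members were called in vitro by genotype (Bcl11b lost, adjusted p = 0.0634 by edgeR), and the counts of members in the other comparisons were the same. The labels do not say whether libraries with the same replicate number belong together. Deviations of same-numbered libraries correlated across genes at -0.232 to 0.146, which cannot show whether they were paired. Over all genes the block called 2527 in vitro and 6 for the interaction. The comparison of samples alone was not run for the interaction, which uses all 8 libraries. Depth limited Id3, with 2 counts in wild-type in vitro cells.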
